A study of Mus musculus with 8 samples.

Results

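De novo fatty acid synthesis turns sugar carbon into fat, and 10 genes of that pathway were followed in the white fat depot that lies along the epididymis (epididymal white adipose tissue): Fasn, Acaca, Acly, Scd1, Scd2, Elovl6, Me1, Thrsp, Srebf1 and Mlxipl. They were chosen by name, as enzymes of the pathway, transcription factors that act on their genes, and Thrsp, whose protein promotes lipogenesis. All 10 were found among the 34866 genes of the deposited table. The control mice were Aromatase flox/flox, with loxP sites around both copies of Cyp19a1, the gene of the enzyme aromatase that makes oestrogens from androgens. The knockout mice were aP2-Cre;Aromatase flox/flox, so they shared those floxed copies and also carried Cre recombinase under the aP2 (Fabp4) promoter. There were 4 libraries of each genotype, and the stated aim was to find adipose genes under Cyp19a1 that act on phosphorus metabolism. Neither age nor strain was given in the sources used here, and mice with aP2-Cre alone were not analysed here, so the transgene and the deletion cannot be told apart. Nothing in the labels says whether the libraries came from separate animals, so a p-value measures the spread between these libraries only.

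In the cytosol, ATP citrate lyase (Acly) splits citrate into acetyl-CoA, acetyl-CoA carboxylase (Acaca) makes malonyl-CoA from it, and fatty acid synthase (Fasn) builds palmitate from both with NADPH as the reductant. Malic enzyme (Me1) supplies part of that NADPH, Elovl6 lengthens palmitate, and the stearoyl-CoA desaturases Scd1 and Scd2 put in a double bond. SREBP1, encoded by Srebf1, and ChREBP, encoded by Mlxipl, switch these genes on after feeding, the first under insulin and the second under glucose, and in adipose tissue the pathway is known to follow the fed state closely. Feeding state at collection was not among the sample details used here.

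The level of every one of the 10 genes was estimated lower in the knockout libraries, but no gene of the 10 passed the test across all genes. The log2 fold changes, knockout minus control, ran from -0.76 for Fasn to -0.12 for Mlxipl with a median of -0.37, where the median over all 12480 genes tested was 0.00 and 50.3% of them had a fold change under 0. With a threshold of 0.05 on the adjusted p from the quasi-likelihood F test of edgeR, 0 of the 10 were called in either direction, beside 21 of all genes (0.168%), or 0.0481% counting only those lower. At an unadjusted p under 0.05 there were 2 of the 10, Acaca and Srebf1, both lower, beside 6.39% of all genes in either direction and 2.87% lower. The adjusted p of the 10 genes lay between 0.472 and 0.96. All 10 passed the filter on low counts, so the median covers every member.

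**Figure D1:**
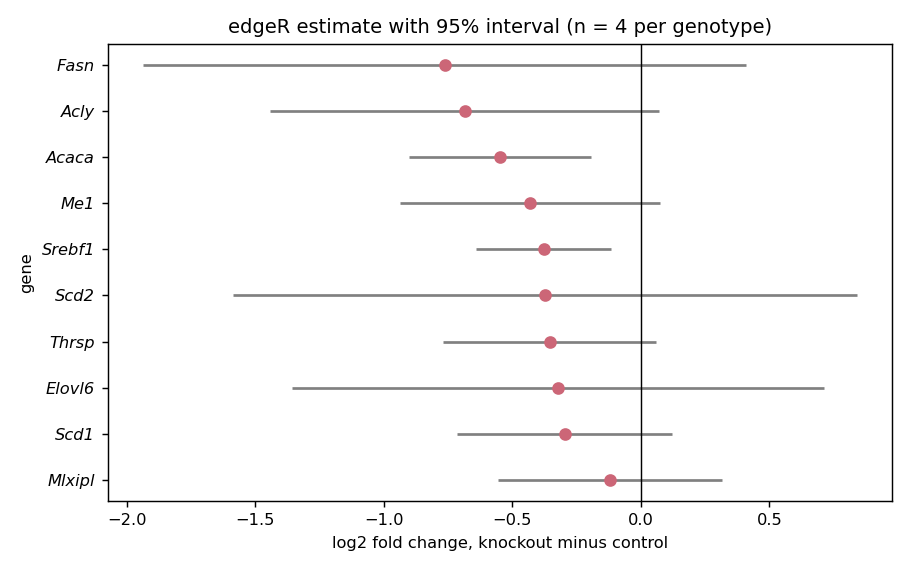
Log2 fold change of each gene, knockout minus control, as points with 95% intervals from the edgeR fit (n = 4 libraries per genotype). All 10 points lie below 0, from -0.76 to -0.12, and the intervals of Acaca and Srebf1 alone stay below 0.

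Windows just before start sites of the 3 genes on which the account below turns are shown here: Fasn, which varied most, and the factors Srebf1 and Mlxipl. Each has 200 bases read 5′ to 3′ on the gene's strand up to the base before the start site, from RefSeq on GRCm38.p6. Capitals mark CACGTG (the E-box form read by ChREBP and its partner), TCACNCCAC (a sterol regulatory element form) and CCAAT (the NF-Y box) on either strand; in Fasn a CCAAT on one strand overlaps one on the other. The Fasn window is chr11:120824548-120824747 (minus strand), upstream of the gene. The Srebf1 window, chr11:60210472-60210671 (minus strand), lies within the gene before an internal start. It is 1 of 3 listed for Srebf1; of the others, the one upstream of the gene has a CCAAT 166 bases before its start and the second internal one has none of the motifs. The first Mlxipl window, chr5:135089690-135089889 (plus strand), is upstream of the gene and the second, chr5:135106691-135106890 (plus strand), lies within it before an internal start.
Fasn: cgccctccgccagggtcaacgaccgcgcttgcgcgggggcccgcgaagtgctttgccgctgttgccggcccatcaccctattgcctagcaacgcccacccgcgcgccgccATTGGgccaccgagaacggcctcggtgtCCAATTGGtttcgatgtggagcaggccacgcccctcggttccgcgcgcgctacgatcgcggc
Srebf1: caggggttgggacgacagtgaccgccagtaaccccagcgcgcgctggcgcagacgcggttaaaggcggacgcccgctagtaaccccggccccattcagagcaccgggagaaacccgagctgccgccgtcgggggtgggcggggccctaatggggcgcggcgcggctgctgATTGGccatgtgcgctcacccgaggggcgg
Mlxipl, first start: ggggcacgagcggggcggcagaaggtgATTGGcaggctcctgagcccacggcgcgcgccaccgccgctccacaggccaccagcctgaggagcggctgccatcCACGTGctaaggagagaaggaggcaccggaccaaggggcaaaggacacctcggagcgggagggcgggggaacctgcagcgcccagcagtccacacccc
Mlxipl, second start: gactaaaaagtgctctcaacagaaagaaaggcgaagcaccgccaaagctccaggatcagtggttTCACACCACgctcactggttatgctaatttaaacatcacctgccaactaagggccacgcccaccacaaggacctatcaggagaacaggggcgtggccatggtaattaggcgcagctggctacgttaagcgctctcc

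Start-site windows of 300 bases, 250 before the start and 50 after it, were listed for 8 of the 10 genes, 12 windows in all; Scd1 and Scd2 had no entry. CCAAT was present in 7 of the 12, beside 37.4% of 32851 windows of all genes. CACGTG was present in 1, the first Mlxipl window, 98 bases before its start, beside 7.15% of all windows. TCACNCCAC was present in 1, the second Mlxipl window, 136 bases before its start, beside 1.24% of all windows. These matches describe letters only.

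Levels below are CPM, counts scaled to a common library size by TMM (trimmed mean of M values), and fold changes are on the log2 scale. The libraries held 1538427 to 3053565 estimated counts, and control replicate 4 was the smallest. A count of 0 would have allowed 3 counts, or 0.982 to 1.95 CPM; every one of the 10 genes was far above this in each library. Cyp19a1 had 0 to 5.02 estimated counts per library in both genotypes, so the deletion could not be checked at this depth. The adipocyte marker Adipoq lay between 2109.7 and 3814 CPM, while 5 of 11 epididymal epithelium genes (Lcn5, Lcn8, Lcn9, Crisp1 and Spink13) were at 0 in all 8 libraries. Of the same list, Aqp9 had 13 to 43.5 counts per library, Adam7 up to 22, and Defb42 up to 12.1. The brown fat gene Ucp1 had 0 to 2 counts. In bulk tissue, fewer cells of a type and less RNA per cell cannot be told apart.

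Fasn (chromosome 11, 120805846 to 120824547, GENCODE M21 on GRCm38, minus strand) makes palmitate and had the lowest fold change of the 10. From replicate 1 through replicate 4, the controls had 1049.5, 1142, 2071 and 1553 CPM and the knockouts 885, 285, 759.9 and 1493 CPM, and all values below are given in this replicate sequence. Knockout replicates 1, 2 and 3 lay below every control library, whereas knockout replicate 4 lay inside the control range. The means were 1454 ± 466 and 856 ± 497 CPM (SD, n = 4), and the fitted log2 fold change was -0.76, its 95% interval reaching from -1.94 to 0.41 (edgeR adjusted p = 0.91). The highest knockout library was 5.24 times the lowest, against 1.97 times among the controls. Without knockout replicate 4 the log2 fold change was -1.18 (edgeR adjusted p = 0.765), and without knockout replicate 2 it was -0.47 (edgeR adjusted p = 0.972).

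Acaca (chromosome 11, 84129672 to 84401651) encodes the carboxylase that commits acetyl-CoA to fat synthesis, and it had the smallest p of the 10. The control libraries had 239, 195, 290.2 and 304 CPM, the knockout libraries 220.3, 137, 164 and 182 CPM. The genotypes overlapped through knockout replicate 1, which lay above control replicate 2. The means were 257 ± 49.9 and 176 ± 34.9 CPM (SD, n = 4), with a log2 fold change of -0.55, a standard error of 0.165 and a 95% interval of -0.90 to -0.19 (unadjusted p = 0.00525, edgeR adjusted p = 0.472). In contrast to Fasn, its spread was alike in both groups, the highest library being 1.56 times the lowest in the controls and 1.61 times in the knockouts. Acaca shares words of 31 bases with 1121 genes. The most, 5412 of its 17075, are shared with the pseudogene Gm5182, which had 0 counts in every library. How the counting split reads of Acaca and Gm5182 is therefore not certain. Acaca overlaps Gm11437 on the opposite strand, which had at most 1 count.

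Acly (chromosome 11, 100476353 to 100528000), the source of cytosolic acetyl-CoA, had the second lowest fold change. Controls held 176, 152, 244 and 381 CPM, against 177, 101, 122 and 189 CPM in the knockouts. The value of control replicate 4 stood above all the others, and 2 of the knockout libraries lay inside the control range. The log2 fold change was -0.69 with a 95% interval of -1.44 to 0.07 (edgeR adjusted p = 0.816). Without control replicate 4 it was -0.37 (edgeR adjusted p = 0.838).

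Me1 (chromosome 9, 86581371 to 86695953), which makes NADPH while turning malate into pyruvate, had the pattern most like that of Fasn across the 8 libraries. Its CPM was 332, 314, 513 and 424 in the controls and 315, 191, 265 and 399.8 in the knockouts. Knockout replicates 2 and 3 lay below every control library and knockout replicate 1 lay just above the lowest control. The log2 fold change was -0.43 with a 95% interval of -0.94 to 0.07 (edgeR adjusted p = 0.832); it was -0.27 without knockout replicate 2, and -0.28 without control replicate 3. Me1 shares 1098 of its 3833 words of 31 bases with the pseudogene Gm7049, which had at most 1.10 counts in a library.

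The desaturases Scd1 and Scd2 lie near each other on chromosome 19 (44394455 to 44407879 and 44293674 to 44306864) and encode enzymes with the same reaction. Scd1 was at 22541, 19117, 21243 and 13863 CPM in the controls and at 14642, 11083, 15921 and 20886 CPM in the knockouts. The lowest control library was replicate 4, and only knockout replicate 2 lay below it. The means were 19191 ± 3822 and 15633 ± 4057 CPM (SD, n = 4), and the fitted log2 fold change was -0.30, its 95% interval reaching from -0.71 to 0.12 (edgeR adjusted p = 0.91). It was -0.16 without knockout replicate 2 and -0.47 without knockout replicate 4.

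Scd2 behaved less evenly. It was at 269.7, 341, 363 and 481 CPM in the controls and at 143, 130.3, 271 and 573 CPM in the knockouts. Knockout replicates 1 and 2 lay below every control library and knockout replicate 4 lay above every control library. The log2 fold change was -0.37 with a 95% interval of -1.58 to 0.84 (edgeR adjusted p = 0.949), and it was -0.998 without knockout replicate 4 (edgeR adjusted p = 0.551), -0.14 without knockout replicate 2, -0.15 without knockout replicate 1 and -0.21 without control replicate 4. Within a library the ratio of Scd1 to Scd2 CPM ranged from 28.8 to 83.6 in the controls and from 36.4 to 102 in the knockouts, with replicate 4 lowest in each genotype. Scd1 shares words of 31 bases with 336 genes and Scd2 with 7. For each the most, under 300, are shared with Scd3, which had 2.51 to 5.70 counts per library.

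Elovl6 (chromosome 3, 129532355 to 129638495), the elongase that carries palmitate to stearate, followed Scd2 in its order of knockout extremes. It was at 36.0, 56.9, 75.8 and 84.6 CPM in the controls and at 38.0, 26.2, 40.0 and 93.5 CPM in the knockouts. Knockout replicate 2 was the lowest and knockout replicate 4 the highest of all 8 libraries. The log2 fold change of -0.32 had a 95% interval of -1.36 to 0.71 (edgeR adjusted p = 0.949) and was -0.85 without knockout replicate 4 (edgeR adjusted p = 0.582), -0.12 without knockout replicate 2, -0.16 without control replicate 4, -0.21 without control replicate 3, -0.22 without knockout replicate 1 and -0.53 without control replicate 1. Elovl6 shares words of 31 bases with 1138 genes. The most, 356 of its 6441, are shared with the pseudogene Gm11295, which had 0 counts in every library.

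Thrsp (chromosome 7, 97412938 to 97417730), or Spot 14, encodes a small protein that promotes lipogenesis. It was at 1386, 1164, 1456 and 1435 CPM in the controls, a narrow range, and at 1367, 786, 774 and 1328 CPM in the knockouts. Knockout replicates 1 and 4 lay inside the control range and replicates 2 and 3 below it. The log2 fold change was -0.35 with a 95% interval of -0.77 to 0.06 (edgeR adjusted p = 0.835), and it was -0.23 both without knockout replicate 2 and without knockout replicate 3. Thrsp shares words of 31 bases with 1028 genes, at most 7 with any gene.

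**Figure D2:**
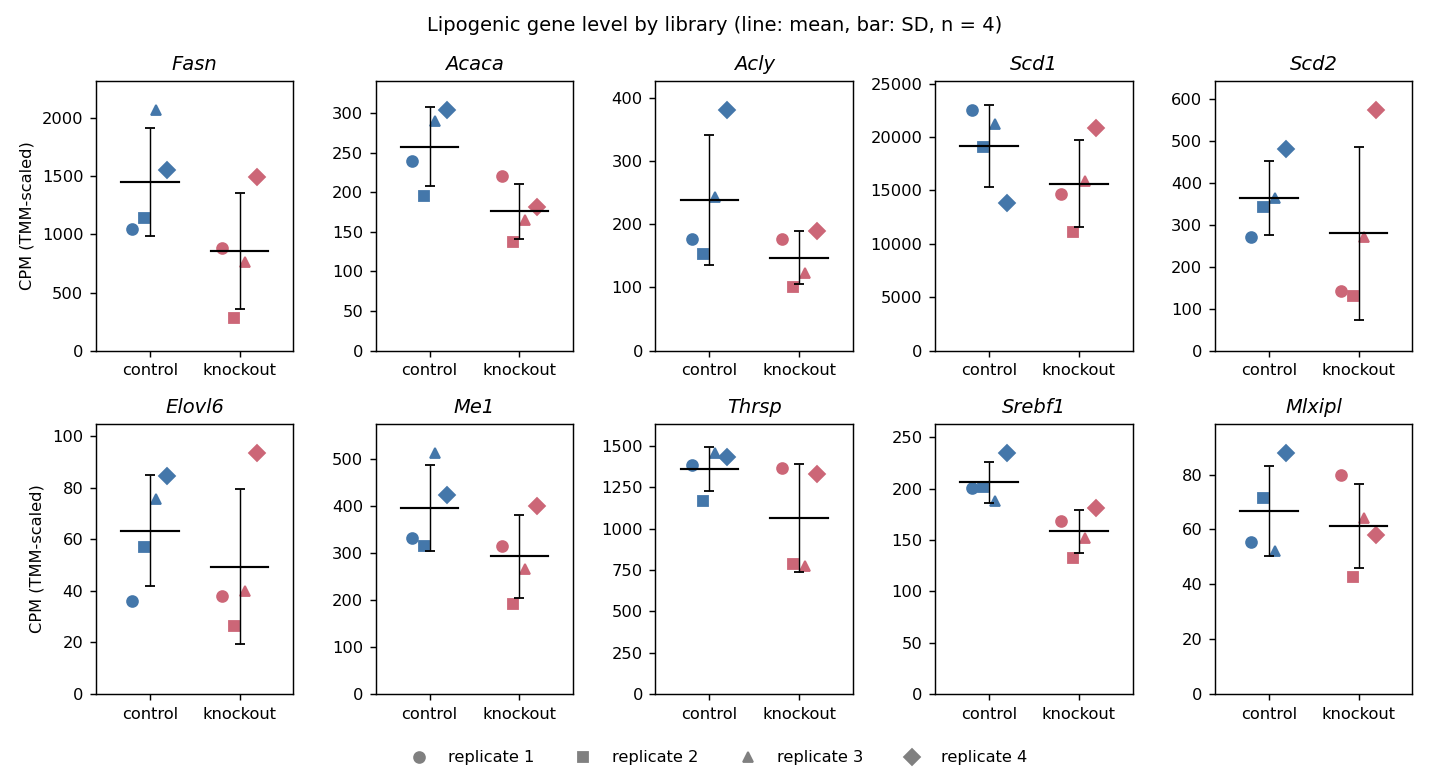
Level of each of the 10 genes in CPM on TMM-scaled library sizes, by genotype, with 1 point per library, the symbol's shape for its replicate number, the group mean as a line and the SD as a bar (n = 4). The 4 knockout points of Srebf1, at 133 to 181 CPM, lie below all control points, and in the 9 other panels the genotypes overlap.

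Of the transcription factors, Srebf1 (chromosome 11, 60199089 to 60222581) encodes both forms of SREBP1, which a count per gene does not separate. The controls lay close together at 200.2, 202, 188 and 235 CPM, and the knockouts had 168, 133, 152 and 181 CPM. It was the only gene of the 10 in which all knockout libraries lay below all control libraries, a separation in that direction seen in 1.74% of all genes tested (4.21% in either direction). The means were 206 ± 19.9 and 158 ± 20.9 CPM (SD, n = 4), which makes 77.0% of the control level, with a log2 fold change of -0.38, a standard error of 0.123 and a 95% interval of -0.64 to -0.12 (unadjusted p = 0.00795, edgeR adjusted p = 0.507). Its log2 fold change lay between -0.45 and -0.30 when each library was left out in turn. Srebf1 overlaps Rai1 on the opposite strand, which had 34.3 to 64.3 counts per library, and whether the counting used strand is not given in the sources used here, so reads of the pair cannot be told apart.

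Mlxipl (chromosome 5, 135089890 to 135138382), the gene of the glucose-responsive factor ChREBP, had the fold change nearest to 0. It was at 55.6, 71.6, 52.0 and 87.8 CPM in the controls and at 79.7, 42.8, 64.0 and 58.0 CPM in the knockouts. The groups overlapped over nearly their whole range. The log2 fold change was -0.12 with a 95% interval of -0.55 to 0.32 (edgeR adjusted p = 0.96), and its sign turned without control replicate 4 (0.03) and without knockout replicate 2 (0.02), while it was -0.27 without knockout replicate 1, -0.22 without control replicate 3 and -0.20 without control replicate 1. Both factors are controlled after transcription too, which these data do not measure. As for Srebf1, a count per gene does not separate transcripts from the first and second start of Mlxipl. Mlxipl shares words of 31 bases with 344 genes. The most, 27, are shared with Actr10, which had 119 to 258 counts per library.

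Among the knockout libraries the extremes were alike for most of the 10 genes, though the full order was not. Knockout replicate 2 was the lowest knockout library in 9 of the 10, all but Thrsp, and knockout replicate 4 the highest in 7. In knockout replicate 2 all 10 genes lay below every control library, with a median of -0.95 against the control mean on the log2 CPM scale. For knockout replicates 1 and 3 the medians were -0.32 and -0.57, with 3 and 6 genes below every control. In knockout replicate 4 the median was 0.01, 5 of the 10 were below the control mean and 2, Acaca and Srebf1, lay below every control. Over all genes tested, 19.1% to 21.0% lay below every control library in a given knockout library and the medians were 0.01 to 0.02.

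**Figure D3:**
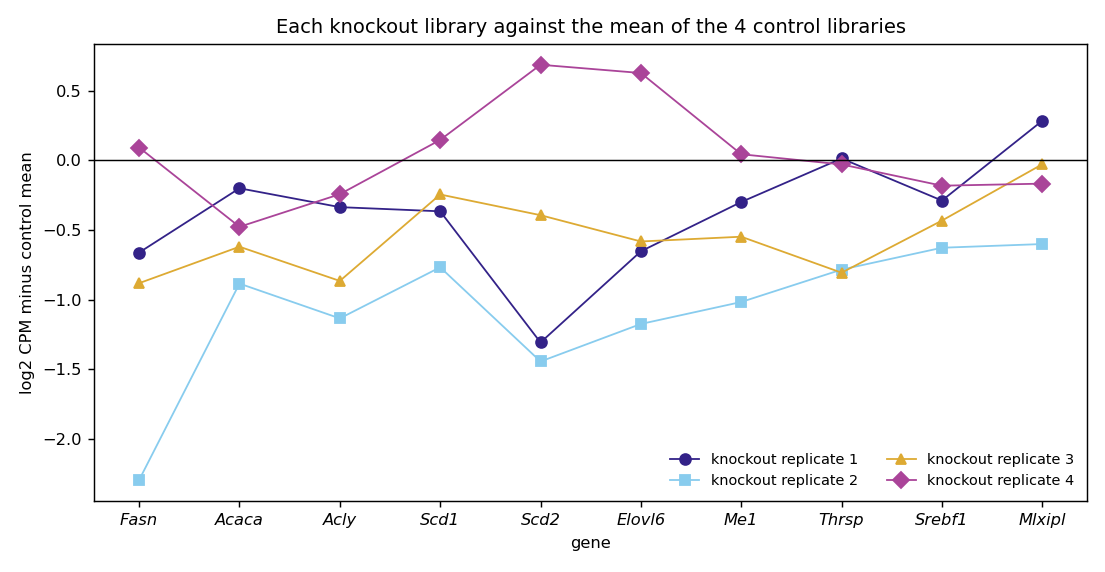
Log2 CPM of each of the 10 genes in each knockout library minus the mean of the 4 control libraries, with lines joining the genes of 1 library for the eye only. Knockout replicate 2 lies below 0 for all 10 genes, down to -2.30 for Fasn, and knockout replicate 4 reaches 0.69 for Scd2 and 0.63 for Elovl6.

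The SD of log2 CPM exceeded that of the controls in 8 of the 10 genes, beside 46.7% of all genes, for which the median SD was 0.27 in the controls and 0.26 in the knockouts. For Fasn it was 0.45 in the controls and 1.00 in the knockouts, for Scd2 0.34 and 0.98, and for Thrsp 0.15 and 0.46. Srebf1 had 0.13 and 0.19, and Mlxipl 0.34 and 0.37. The pair in which the controls spread more was Acly, at 0.58 and 0.43, and Acaca, at 0.29 in both groups to that precision. No test of the spread was made with 4 libraries per group.

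Leaving out a library moved the size of the difference. Without knockout replicate 4 the median log2 fold change of the 10 genes was -0.59 in place of -0.37, and 8 of the 10 had an unadjusted p under 0.05 and were lower, beside 3.23% of all genes in that fit. Without knockout replicate 2 the median was -0.25 and 2 of the 10 had such a p, beside 2.40%. Without control replicate 2 there were 4, beside 2.58%. With all libraries there were 7 with the replicate number as a block, beside 2.75%, 4 with limma-voom, beside 3.59%, and 1 with scaling to adipocyte markers, beside 0.801%. In none of these fits was any of the 10 below an adjusted p of 0.05. These libraries are named for their values of these genes, so the change without either is a description.

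Across the 8 libraries, which share the 2 genotypes and the same scaling, the levels of Fasn and Me1 had a Pearson correlation of 0.97 on log2 CPM, Acaca and Acly 0.91, and Scd2 and Elovl6 0.91. With each genotype's mean removed, the same pairs had 0.96, 0.88 and 0.90. At the other end, Scd1 and Mlxipl had -0.05 and Acly and Scd1 0.24. Among genes outside the pathway and marker lists, the 6 whose log2 CPM was most like the mean of the 10 were Cyb5b (0.967), Thop1 (0.949), Agpat2 (0.947), Fam192a (0.945), Pmp22 (0.936) and Clec11a (0.934), as Pearson's r over 8 libraries, taken as the highest of all genes tested. Spearman's rho for them was 0.833 to 0.952, and without the 2 libraries farthest from the median r was 0.799 to 0.942. Cyb5b encodes an outer mitochondrial membrane cytochrome b5, and Agpat2 the acyltransferase that makes phosphatidic acid for triglycerides. Agpat2 was at 492, 539, 522 and 617 CPM in the controls and at 371, 232, 286 and 567 CPM in the knockouts (log2 fold change -0.57, edgeR adjusted p = 0.743). Knockout replicate 2 was lowest and replicate 4 lay inside the control range. The gene was picked for its likeness to the 10, so this order is a description only.

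Genes listed around the supply of carbon and NADPH were mostly estimated lower too, and none passed. The lists were drawn up by name and not every gene in them feeds the pathway, Ldha, Gpd1 and Pdk4 among them. A lower level of a listed gene is therefore not a measure of supply. Of 19 genes of acetyl-CoA and carbon supply 18 were tested: 17 had a lower and 1 a higher estimate, with a median log2 fold change of -0.26, 0 called in either direction, 5 lower at an unadjusted p under 0.05 (2.87% of all genes) and 3 lower without overlap between the genotypes (1.74% of all genes). The smallest p belonged to Aldoa, the glycolytic aldolase, at 1066, 972, 1260.3 and 912 CPM in the controls and 715, 659, 687 and 849.7 CPM in the knockouts. Every knockout library lay below every control library (log2 fold change -0.53, 95% interval -0.81 to -0.25, edgeR adjusted p = 0.255). The other 2 without overlap, named after their values were seen, were lactate dehydrogenase Ldha, at 604 to 726 CPM in the controls and 474 to 547 CPM in the knockouts (log2 fold change -0.35, edgeR adjusted p = 0.482), and malate dehydrogenase Mdh1, at 594 to 697 and 448 to 559 CPM (log2 fold change -0.31, edgeR adjusted p = 0.669).

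All 12 genes of NADPH supply were tested, 12 had a lower estimate, 0 were called and the median log2 fold change was -0.23. At an unadjusted p under 0.05 there was 1, lower, beside 2.87% of all genes. That gene was transketolase, Tkt, of the pentose phosphate pathway, at 441, 448, 697 and 572 CPM in the controls and 461, 302, 352 and 388 CPM in the knockouts (log2 fold change -0.52, edgeR adjusted p = 0.498). Its groups overlapped through knockout replicate 1. The summed level of the list was 1915 to 2183 CPM in the control libraries and 1501 to 1838 CPM in the knockout libraries, which did not overlap. That of the carbon supply list did not overlap either, at 4347 to 5313 and 3237 to 4196 CPM, but its mean log2 CPM did, at 7.00 to 7.28 in the controls and 6.74 to 7.00 in the knockouts, where knockout replicate 4 lay just above control replicate 2. In these sums knockout replicate 4 lay below every control, unlike in the sum of the 10 lipogenic genes, most of which is Scd1 and which was 18847 to 26495 CPM in the controls and 12915 to 25383 CPM in the knockouts.

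The remaining pathway lists lay nearer to the median of all genes. Of 21 other carboxylase, elongase and desaturase genes 15 were tested, 11 lower and 4 higher, with a median of -0.13 and 0 called; the smallest p was that of Tecr, the reductase that ends each round of elongation (log2 fold change -0.34, edgeR adjusted p = 0.603). Of 26 regulators of lipogenic transcription 26 were tested, 14 lower and 12 higher, with a median of -0.02 and 0 called. Among them Crtc2, a coactivator of CREB, had the smallest p, at 15.4 to 21.1 CPM in the controls and 7.37 to 13.3 CPM in the knockouts with no overlap, as in 1.74% of all genes in that direction (log2 fold change -0.70, edgeR adjusted p = 0.635). Of 10 genes of mitochondrial fatty acid synthesis, a separate pathway that makes lipoic acid precursors, 9 were tested, 7 lower and 2 higher, with a median of -0.13 and 0 called; the smallest p was that of Acsf3 (log2 fold change -0.27, edgeR adjusted p = 0.918).

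Acss2 and Insig1, named after their values were seen, had the knockout libraries in the same order as Fasn. Acss2, which makes acetyl-CoA from acetate, was at 58.3, 50.6, 63.7 and 82.7 CPM in the controls and 46.2, 21.4, 28.7 and 72.1 CPM in the knockouts (log2 fold change -0.58, edgeR adjusted p = 0.907). Insig1, which holds SREBPs in the endoplasmic reticulum and is itself an SREBP target, was at 214, 312, 244 and 444 CPM in the controls and 235, 125, 203 and 596 CPM in the knockouts (log2 fold change -0.06, edgeR adjusted p = 0.996). Knockout replicate 2 was the lowest of all 8 libraries and knockout replicate 4 the highest for Insig1, as for Elovl6.

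Markers of the cells in the depot were read beside these genes. Of 24 adipocyte marker symbols listed, 23 were found and all of these were tested. The other symbol, Tusc5, is an older name of Trarg1, which is among the 23. Of the tested markers 18 were lower and 5 higher, with 0 called and a median log2 fold change of -0.07. Their summed level was 76511 to 99009 CPM in the controls and 66478 to 93608 CPM in the knockouts. No tested marker was at 0 in all libraries. The 1 without overlap, Retn, also named after its values were seen, had a log2 fold change of -0.65 (edgeR adjusted p = 0.0731). Of all genes tested, 1.74% were lower without overlap. Knockout replicate 2, lowest in the lipogenic genes, was not the lowest in adipocyte markers, at 80131 CPM against 66478 CPM in knockout replicate 3. The mean log2 CPM of the 10 genes minus that of the adipocyte markers was -1.42, -1.14, -0.94 and -0.52 in the controls and -1.50, -1.92, -1.26 and -0.92 in the knockouts. On that scale knockout replicates 1 and 2 lay below every control and knockout replicates 3 and 4 inside the control range. With each library scaled to the adipocyte markers, the median fold change of the 10 was -0.33, that of all genes 0.08, and all 10 stayed below 0.

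Of 20 macrophage markers 19 were tested, 17 higher and 2 lower, with a median of 0.41 and 3 called higher, beside 0.168% of all genes called in either direction. These 3, named after their values were seen, were Lyz2, Gpnmb and Cd68. The summed level of the 20 markers was 1108 to 1269 CPM in the controls, below that of every knockout library. The sums in knockout replicates 1 to 4 were 1657, 1728, 1613 and 2028 CPM. Knockout replicate 4, highest of the knockouts in the mean level of the 10 lipogenic genes, was highest in this sum too. Knockout replicate 2, lowest in that mean level, was above replicates 1 and 3 in the sum. Stromal progenitor markers summed to 9304 to 9897 and 8303 to 9335 CPM, endothelial markers to 685 to 1247 and 961 to 1172 CPM, lowest in control replicate 4, and mesothelial markers to 118 to 377 and 137 to 238 CPM. Of 12 stromal progenitor markers 9 were higher and 3 lower, with a median log2 fold change of 0.02 and 0 called. Their sum was largely Gsn, named after its values were seen, with means of 5423 CPM in the controls and 4476 CPM in the knockouts. Of 12 lymphocyte markers 2 were tested (median log2 fold change -0.38), and of 6 red blood cell markers 5 (median -0.30), with 0 called. The part of these cells in the lipogenic values was not tested.

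**Figure D4:**
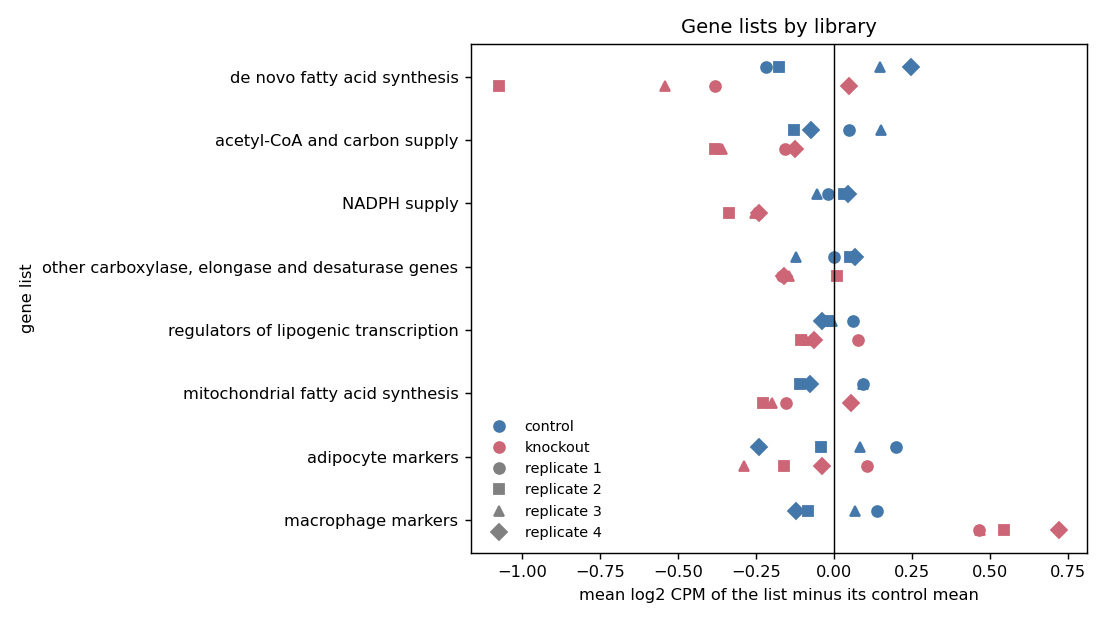
Mean log2 CPM of the tested genes of each list in each library minus the list's control mean, with colour for genotype and symbol for replicate number (n = 4 per genotype). Among the knockout libraries the 10 lipogenic genes range from -1.07 in replicate 2 to 0.05 in replicate 4, while the NADPH supply genes of all 4 knockout libraries lie between -0.34 and -0.24, and the macrophage markers between 0.46 and 0.72.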

How the data were processed

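RNA of 8 libraries was profiled by BRB-seq, a 3′-end method primed with oligo-dT, per the labels' protocols. The authors deposited estimated counts per gene without normalization; the submitters' processing notes name Salmon and GRCm38, and their versions, the gene models and any use of strand or molecular identifiers are not given in the sources used here. Estimated counts were rounded to whole numbers. Identifiers were matched without version to GENCODE M21, which gave symbols and coordinates, and words of 31 bases were compared between its transcripts. The comparison of genotypes used edgeR 4.0.16 under R 4.3.3 (robust quasi-likelihood F test, TMM factors, filterByExpr, Benjamini-Hochberg over 12480 genes, threshold 0.05). Log2 CPM used a prior count of 2. Intervals are 95% from the fit. The fits were tested on simulated data. Alternatives used RLE or upper-quartile factors, adipocyte marker scaling, other filters, DESeq2 1.42.0, limma-voom (limma 3.58.1), downsampling, a replicate block and leaving out each library.

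The members and lists were chosen with earlier results of these data known. Genes named are the 10 members, the gene with the smallest p and any gene past the threshold in each other pathway list, and the 6 genes outside the lists that correlated most with the mean of the members; others are said to be named after their values were seen.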

Additional observations from a re-analysis of the deposited data

Results flagged for a closer look

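Dixon's rule for 4 libraries marks the highest or lowest value when the distance to its neighbour is above 0.829 of the whole range. It was applied to 50 sets of 4 values and marked 2, and chance alone marks about 2.5. Both were in knockout replicate 2. The mean log2 CPM of the NADPH supply list was 6.17 there, against 6.25 to 6.27 in the other knockout libraries. That of the other carboxylase, elongase and desaturase genes was 6.53 there, against 6.36 to 6.38, so the library was low in the first list and high in the second. In the 10 lipogenic genes themselves no library was marked in either genotype.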

How the results depend on the processing

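No lipogenic gene passed an adjusted p of 0.05 under any of the 17 alternatives; the lowest was 0.0623, for Acaca without the low-count filter, against 0.472. Of 170 recomputed fold changes 168 stayed below 0, and 2 reversed, both of Mlxipl, without control replicate 4 (0.029) and without knockout replicate 2 (0.018). The fits reuse the same libraries and most of the 10 genes vary together, so the 170 values are not independent. Mlxipl was also at -0.265 without knockout replicate 1. Leaving out single libraries put the median of the 10 genes between -0.593 and -0.254. The number of the 10 with an unadjusted p under 0.05, 2 with all libraries, was 4 with limma-voom, 3 with DESeq2 and without the low-count filter, 1 with adipocyte marker scaling and 2 to 8 when 1 library was left out. Lower at such a p were 2.87% of all genes in the main fit, 3.59% with limma-voom and 2.53% with DESeq2. The share was 2.47% without the low-count filter and 0.801% with adipocyte marker scaling. It was 2.75% with the replicate block and 2.11% to 3.41% when 1 library was left out. Genes past the threshold, 21 in all, were 58 without the low-count filter, 55 with DESeq2 and 4 to 43 when 1 library was left out (4 without control replicate 2, 43 without control replicate 4). A fit with the replicate block had 6 genes past the threshold, and 7 of the 10 had an unadjusted p under 0.05, with none of these past the threshold (lowest adjusted p 0.469). For libraries with the same number, correlations of their deviations were 0.25, -0.06, -0.01 and -0.24. Only control replicate 1 had its best match in the knockout library of the same number. These correlations cannot tell whether equal numbers stand for a pairing or a batch. The cause of the changes between fits was not tested. A filter on 80 counts in total, RLE and upper-quartile factors and downsampling kept the number of the 10 at 2. Depth limits Cyp19a1, at 0 to 5.02 counts, more than the 10 genes, the lowest of which had 64.7 counts. Downsampling still moved the log2 fold change of Elovl6 from -0.32 to -0.44 and of Srebf1 from -0.38 to -0.32. That of Mlxipl went from -0.12 to -0.17, and the rest of the 10 moved less than these.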
